A study of Homo sapiens with 12 samples.

Results

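The genes described here are 58 factors of RNA polymerase I transcription and ribosome assembly, chosen by gene name with earlier results of these data known. They are among 26485 genes counted in OVCAR8 cells, an established human ovarian cancer line. They comprise 8 genes of the RNA polymerase I machinery, 5 nucleolar proteins, 7 proteins of small nucleolar ribonucleoprotein particles (snoRNPs), 13 of the small subunit (SSU) processome, 7 of later 40S maturation and 18 of 60S assembly. All 58 passed the filter on low counts and were among the 14865 genes tested.

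Ribosome production begins in the nucleolus, where RNA polymerase I transcribes the precursor of the 18S, 5.8S and 28S ribosomal RNAs. Guided by small nucleolar RNAs, box C/D snoRNPs methylate this precursor and box H/ACA snoRNPs convert uridines to pseudouridines. The SSU processome folds and cuts the 18S region, further factors mature and export the 40S subunit, and a separate set assembles the 60S subunit. Growing cancer cells use this pathway heavily, and MYC and the ERK pathway are well-known activators of it.

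Cells were treated for 7 h with vehicle (control), with 150 nM EC359, a small-molecule inhibitor of the leukemia inhibitory factor receptor (LIFR), with 100 nM trametinib, an inhibitor of MEK, or with both agents (combination). Each condition had 3 libraries of polyadenylated RNA, and no label says that they came from separate cultures, so p-values measure the spread between these libraries. The comparisons ask how each agent and the pair changed the pathway, and whether the pair differed from the sum of its parts.

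Library totals ran from 24790392 to 32467283 reads counted on genes, and the biological coefficient of variation was 3.95%. Epithelial genes of the line were read at 877 to 1030 CPM (counts after TMM scaling to libraries of equal size) for KRT7 and 73.7 to 123 for PAX8, MUC16 had at most 1 count, and the leukocyte genes PTPRC and CD3E had none. DUSP6, a negative feedback gene of ERK, averaged 4.08 CPM in control, 14.9 under EC359, 0.0953 under trametinib and 1.54 under the combination, and SPRY4, another such gene, averaged 19.5, 81, 0.247 and 1.51. MYC averaged 143 CPM in control, 240 under EC359, 99.8 under trametinib and 192 under the combination, so its mean was above control in the 2 groups given EC359. TMM scaling factors were 0.947 to 0.952 in the libraries given EC359 and 1.04 to 1.06 in the others, and total counts were the alternative to TMM that moved values most. Under total counts the median of all genes tested was -0.15 with EC359 and -0.14 with the combination, so log2 values of these comparisons lie lower by about that much and small ones move by over 1.5 times. In bulk samples, fewer cells with a transcript and less of it per cell cannot be told apart.

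Most of the 58 genes fell under each treatment. With trametinib alone 50 fell and 1 rose, by edgeR's quasi-likelihood test at a Benjamini-Hochberg adjusted p-value under 0.05, where 15.2% of all genes tested fell and 13% rose. With EC359 alone 40 fell and 8 rose (all genes tested, 30.3% and 30.8%), and with the combination 45 fell and 7 rose (34.7% and 35%). The median log2 fold change of the 58 was -0.22 with trametinib, -0.19 with EC359 and -0.40 with the combination, while the median of all genes tested lay between -0.01 and 0. Under total counts in place of TMM, 51 of the 58 were lower and 5 higher with EC359, 47 and 1 with trametinib and 51 and 3 with the combination, where all genes tested had 6677 lower and 3115 higher with EC359, 1770 and 2484 with trametinib and 6811 and 3838 with the combination.

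The changes with trametinib were small and even, with the quartiles of the genes 0.16 apart on the log2 scale. The distance was 0.37 with EC359 and 0.73 with the combination. All genes tested had the same order, with 0.22 for trametinib, 0.52 for EC359 and 0.68 for the combination. Changes of at least 2-fold were seen mainly with the combination, where 8 of the 58 fell (POLR1B, MYBBP1A, WDR3, UTP15, LTV1, RRS1, PPAN and NOP16) and 1 rose (TAF1D), against 5.87% and 7.27% of all genes tested. With EC359 alone 0 fell by 2-fold and 1 rose (2.79% and 4.19% of all genes tested), and with trametinib alone 0 fell and 1 rose (0.955% and 0.478%). That 1 gene was RRN3 in both cases, a gene of few counts that are uncertain because reads with several placements were divided. Without it EC359 alone had 40 lower and 7 higher and trametinib alone 50 lower and 0 higher. Under total counts UTP3 (-1.14), WDR43 (-1.1), PNO1 (-1.09), DKC1 (-1.07), WDR75 (-1.06), NAT10 (-1.05) and NIP7 (-1.04) also fell by over 2-fold with the combination. RRS1 (-1.08) and POLR1B (-1.04) then did so with EC359 alone. Shares of all genes tested past 2-fold were not computed under total counts.

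Of the 58, 36 fell with both single agents, 4 with EC359 only and 14 with trametinib only, against 5.78%, 24.5% and 9.42% of all genes tested. Both comparisons use the same control libraries, and the counts do not test the difference between agents. Under total counts they were 43, 8 and 4, and the shares of all genes tested were not computed for that scaling. Those shares would differ, as 6677 of all genes tested fell with EC359 under total counts and 4501 under TMM. DDX21, NOLC1, FBL, BYSL, RRP12 and GNL2 rose with EC359 and fell with trametinib, a pattern of 5.76% of all genes tested, and under total counts 3 of them (DDX21, RRP12 and GNL2) still did. NOLC1 then fell with EC359 (-0.08), and FBL (-0.04) and BYSL (0.00) did not pass. In the combination, total counts changed the call of 8 of the 58, of which NPM1 and NOC2L went from higher to lower, FBL and NOP58 lost their rise, and NOLC1, DDX10, BYSL and BOP1, which had not passed, fell. The heat map by role shows every gene.

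**Figure D1:**
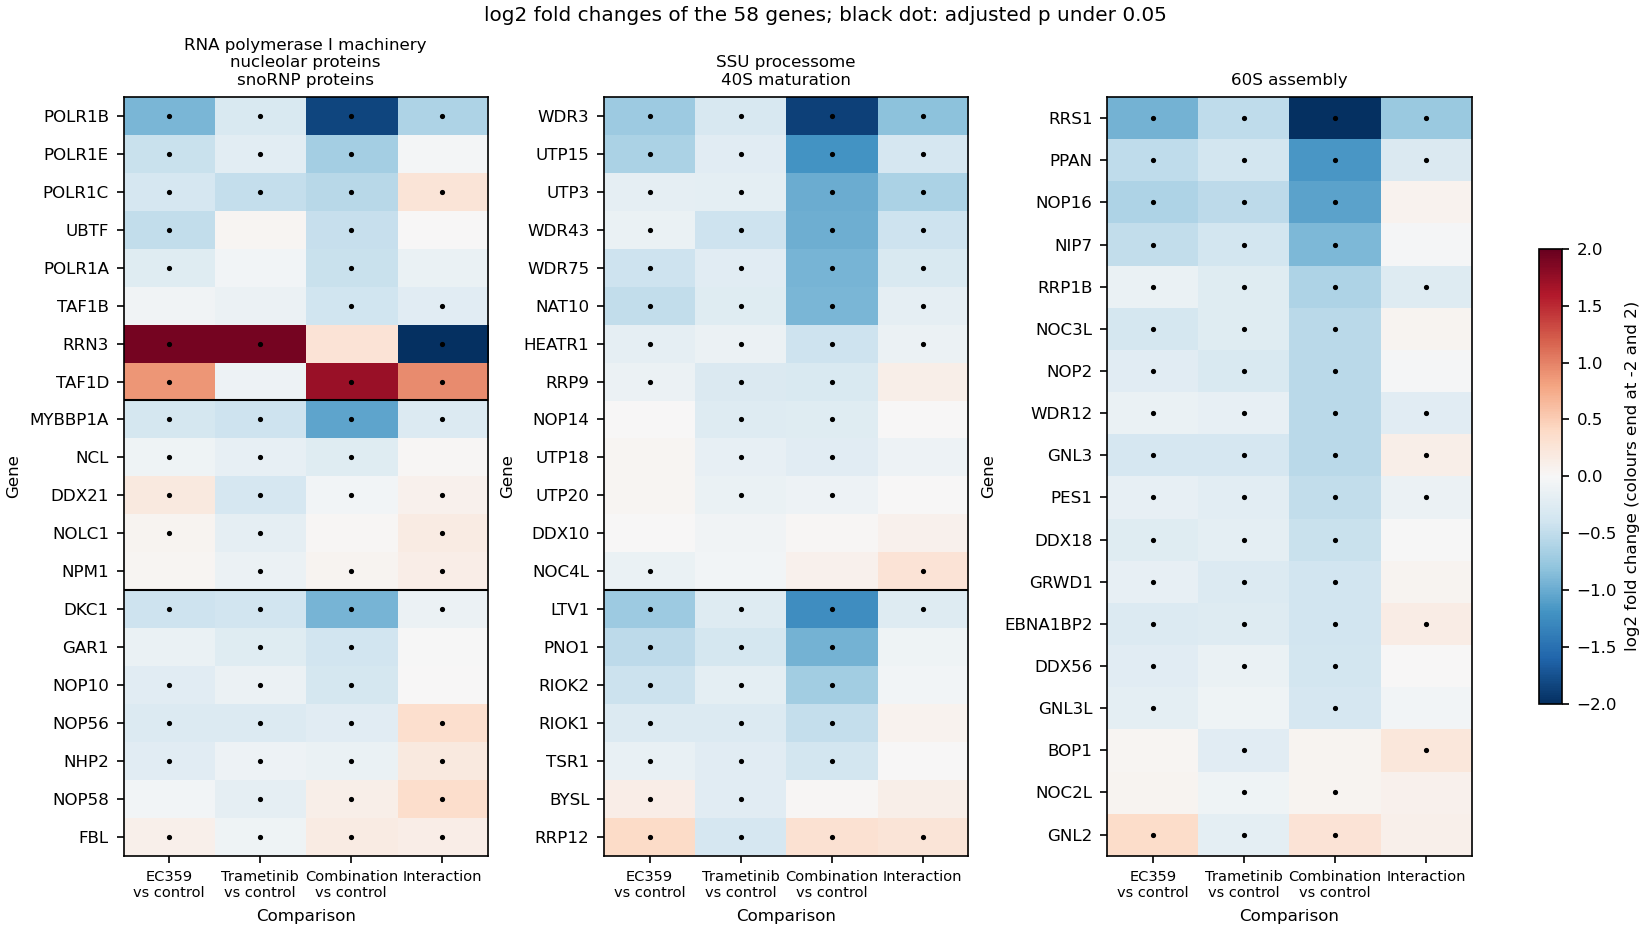
Log2 fold changes of the 58 genes (rows, ordered within each role by the combination) against control for EC359, trametinib and the combination, with the interaction in the fourth column; blue is lower, red is higher, and a black dot marks an adjusted p under 0.05. The combination column is blue for 45 genes, and TAF1D stands out there in red. RRN3 is red with each single agent and blue in the interaction, and its combination value did not pass. Small values of 8 genes in the combination change sign when libraries are scaled by total counts, among them the red ones of NPM1, NOP58, NOC4L and NOC2L.

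In the promoters, the E-box CACGTG, the letters bound by MYC with MAX and by related factors, was common. RefSeq (GRCh38.p14) windows from 250 bases before to 50 bases after the annotated start were at hand for 50 of the 58 genes, and 20 of the 50 (40%) held CACGTG, against 12.5% of 10689 tested genes with a window and 8.77% of 27305 genes with a window. In all 20 an E-box lay within 50 bases of a start, which was so for 41.3% of the tested genes that held one. The ETS letters CCGGAAGT, read on both strands, were in 15 (30%), against 9.4% of tested genes, while GGGCGG (the GC box) was in 76% against 76.6% and TGACGTCA (the cyclic AMP response element) in 4% against 3.69%. Matches of different motifs did not overlap, but some GC boxes overlapped each other in UBTF, GNL3 and DKC1. A match of letters is a description, not a bound site.

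The sequences below are shown because they place the E-box, in capitals, beside the start in genes from the bottom and the top of the combination's range. They run 5′ to 3′ on the gene's strand, from LTV1 and MYBBP1A, which fell by at least 2-fold, through WDR43, PNO1 and NAT10, to FBL, GNL2 and BYSL, which did not fall.
LTV1 (chr6:143843354-143843383, + strand): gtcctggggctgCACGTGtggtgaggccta
MYBBP1A (chr17:4555340-4555369, - strand): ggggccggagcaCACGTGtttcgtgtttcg
WDR43 (chr2:28894658-28894687, + strand): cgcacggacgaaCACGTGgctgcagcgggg
PNO1 (chr2:68157885-68157914, + strand): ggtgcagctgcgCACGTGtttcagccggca
NAT10 (chr11:34105602-34105631, + strand): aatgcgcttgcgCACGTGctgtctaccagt
FBL (chr19:39846356-39846385, - strand): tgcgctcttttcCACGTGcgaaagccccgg
GNL2 (chr1:37595917-37595946, - strand): gtacgtcgtgcaCACGTGgtccggcgtggt
BYSL (chr6:41921515-41921544, + strand): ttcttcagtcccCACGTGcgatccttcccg

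Genes with and without an E-box had close medians. The 20 with an E-box had a combination median of -0.38 on the log2 scale and the 30 without had -0.42, with 17 and 24 lower. ETS letters gave a median of -0.38 with and -0.44 without. The 8 genes without a window (POLR1E, NOLC1, NOP58, RRP12, RRP1B, BOP1, RRS1 and DDX18) are in none of these groups. They include RRS1, which fell most with the combination. Of the other genes that changed most, POLR1B, WDR3 and TAF1D held no CACGTG in their windows. The 120 bases upstream of these 3 genes are given with GC box letters (GGGCGG or its complement) in capitals, and WDR3 had none there.
POLR1B (chr2:112541795-112541914, + strand): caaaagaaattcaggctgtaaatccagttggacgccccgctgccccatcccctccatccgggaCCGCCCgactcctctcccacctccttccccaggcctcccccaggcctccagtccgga
WDR3 (chr1:117929619-117929738, + strand): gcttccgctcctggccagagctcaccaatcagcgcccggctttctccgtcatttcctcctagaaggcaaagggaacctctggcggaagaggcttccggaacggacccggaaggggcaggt
TAF1D (chr11:93741538-93741657, - strand): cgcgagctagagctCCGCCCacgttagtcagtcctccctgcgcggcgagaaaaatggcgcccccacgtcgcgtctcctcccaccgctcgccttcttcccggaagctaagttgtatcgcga

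**Figure D2:**
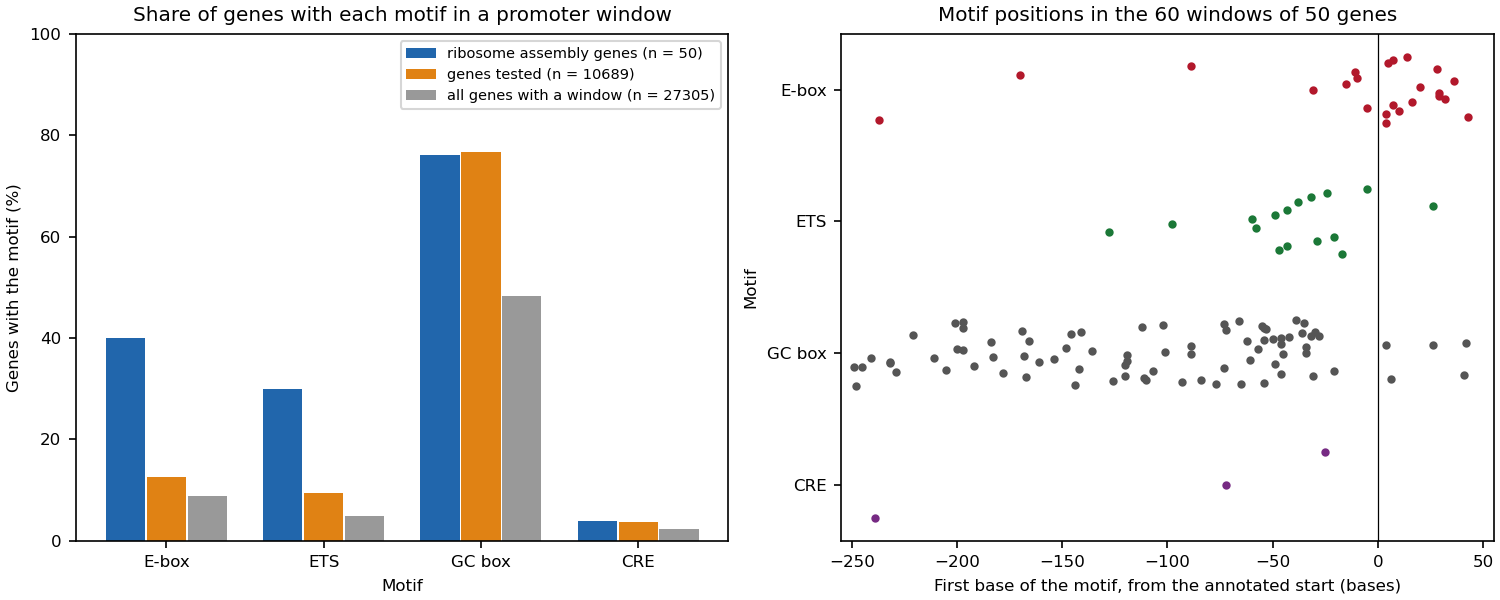
Left, the percentage of genes with each motif in a promoter window, for 50 of the ribosome assembly genes, 10689 genes tested and 27305 genes with a window. Right, the distance in bases from the annotated start to the first base of each match in the 60 windows of the 50 genes, where E-box points gather at the start.

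Among the RNA polymerase I genes, subunits fell and an SL1 subunit rose. With the combination 6 of 8 fell and 1 rose, with EC359 5 fell and 2 rose, and with trametinib 3 fell and 1 rose. POLR1B, the second largest subunit of the enzyme (hg38, chr2:112541915-112577152, + strand, 16 merged exons), was read at 124, 126 and 128 CPM in control and at 67.6, 64.8 and 69 CPM with EC359. It was read at 100, 104 and 99.5 CPM with trametinib and at 37, 33.5 and 34.9 CPM with the combination. The 4 groups did not overlap, and the combination was the lowest. POLR1B fell by 1.84 on the log2 scale (SE 0.04, 3.58-fold, edgeR adjusted p = 8.7e-44), against 0.91 with EC359 and 0.31 with trametinib in the same direction.

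POLR1E, which encodes the PAF53 subunit, was read at 52 to 53.4 CPM in control, 36 to 41 under EC359, 44.9 to 46.4 under trametinib and 31.9 to 34.4 under the combination, again with no overlap between groups. Its log2 fold change was -0.68 in the combination (SE 0.05). POLR1C, a subunit shared with RNA polymerase III, had -0.56, the largest subunit POLR1A -0.44, the upstream binding factor UBTF -0.46 and the SL1 subunit TAF1B -0.40, and all 4 fell by the test. UBTF had -0.50 with EC359 and 0.04 with trametinib, the second of which did not pass.

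TAF1D, a further subunit of SL1, the complex that recruits the polymerase to its promoter (chr11:93735931-93741537, - strand), moved the other way. It was read at 57.5, 56.6 and 58 CPM in control and at 103, 109 and 107 CPM with EC359. With trametinib it was read at 57.1, 52.7 and 50.9 CPM, overlapping control, and with the combination at 187, 200 and 184 CPM, above all other libraries. The log2 fold change was 0.89 with EC359, -0.10 with trametinib (SE 0.04, edgeR adjusted p = 0.063) and 1.73 with the combination (SE 0.04, edgeR adjusted p = 1.5e-39), a 3.32-fold rise. GENCODE 29 gives TAF1D a wider span (chr11:93729948-93784391) and places 8 small nucleolar RNA genes within it, on its strand. The annotation used for counting lists 0 within the narrower span given above.

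RRN3, the initiation factor known as TIF-IA, was read at 0.893, 1.17 and 1.18 CPM in control, 2.37, 5.57 and 4.22 under EC359, 3.43, 4.9 and 4.06 under trametinib and 1.2, 1.04 and 1.73 under the combination. Each single agent stood apart from control, and the combination overlapped it. The log2 fold change was 1.91 (SE 0.26) with EC359, 1.92 (SE 0.26) with trametinib and 0.28 (SE 0.29, edgeR adjusted p = 0.40) with the combination. These values rest on 24.83 to 166.5 counts a library. The annotation places RRN3 on 2 sequences, and reads with several placements were divided, so its level and its change are uncertain. Pseudogene RRN3P3 had 71 to 94.25 counts in control and 192 to 220 with the combination, and its part in the RRN3 values was not tested.

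With the combination the abundant nucleolar proteins moved little, apart from MYBBP1A. MYBBP1A, a nucleolar binding partner of MYB that takes part in ribosomal RNA processing (chr17:4538896-4555386, - strand), was read at 266, 270 and 262 CPM in control, 217, 204 and 205 under EC359, 197, 200 and 199 under trametinib and 133, 123 and 128 under the combination. Both single agents lay below control and the combination below both. It fell by 1.05 on the log2 scale with the combination (SE 0.03, 2.08-fold, edgeR adjusted p = 6.3e-38), against 0.35 with EC359 and 0.42 with trametinib in the same direction.

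NCL (nucleolin), which binds nascent ribosomal RNA, was read at 1370 to 1430 CPM in control and 1130 to 1220 with the combination, without overlap, a log2 fold change of -0.24 (SE 0.02), which was -0.38 under total counts. NPM1 (nucleophosmin), a scaffold of the nucleolus, was read at 2230 to 2340 CPM in control, 2290 to 2380 under EC359, 2060 to 2100 under trametinib and 2270 to 2430 under the combination. NPM1 fell with trametinib by 0.12 (SE 0.02), and its combination value of 0.05 (SE 0.02, edgeR adjusted p = 0.048) overlapped control and became -0.09 under total counts. DDX21, an RNA helicase, rose by 0.19 with EC359 and had -0.34 with trametinib and -0.05 with the combination, all past the threshold, and NOLC1, a snoRNP chaperone, had 0.06, -0.18 and 0.03, of which the last did not pass. With total counts the EC359 values of these genes were 0.06 for DDX21, still higher by the test, and -0.08 for NOLC1.

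Per kilobase of exon, NPM1 (1280 CPM per kb in control), NCL (513) and FBL (235) had the highest levels of the 58, against a median of 38.4 and a lowest value of 0.143 for RRN3. Summed over the 58, the libraries held 10790 to 11030 CPM in control, 10090 to 10210 under EC359, 9495 to 9539 under trametinib and 9140 to 9504 with both agents, a sum in which NPM1 and NCL weigh most. Across 57 genes without RRN3, the Spearman correlation between this control level and the combination's log2 fold change was 0.35, as a description over genes of the same 12 libraries. Correlations with exon number (0.07) and exon length (-0.17) were weaker.

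All 7 snoRNP protein genes fell with trametinib (under total counts FBL and NOP10 did not pass), 4 fell and 1 rose with EC359, and 5 fell and 2 rose with the combination. DKC1, the pseudouridine synthase of H/ACA snoRNPs, was read at 195, 195 and 193 CPM in control, 141, 146 and 147 under EC359, 155, 144 and 145 under trametinib and 104, 104 and 98.9 under the combination. The single agents overlapped each other, and the combination was below both. It fell by 0.93 with the combination (SE 0.03, edgeR adjusted p = 4.5e-34). Small nucleolar RNA genes share exon bases with DKC1, so some of its reads could be divided.

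GAR1, NOP10 and NHP2, the other H/ACA proteins, had log2 fold changes of -0.38, -0.35 and -0.14 with the combination. GAR1 was read at 52.5 to 55.8 CPM in control and at 39.3, 47.7 and 37.3 CPM with the combination, which did not overlap (SE 0.07, edgeR adjusted p = 0.0002). FBL (fibrillarin), the methyltransferase of box C/D snoRNPs, was read at 267 to 279 CPM in control, 289 to 300 under EC359, 253 to 268 under trametinib and 297 to 315 under the combination. Its combination value of 0.16 (SE 0.03, edgeR adjusted p = 3.9e-07) became 0.02 and lost its call under total counts.

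NOP58, a core box C/D protein, was read at 153 to 157 CPM in control, 147 to 149 under EC359, 136 to 138 under trametinib and 166 to 170 under the combination, and its value of 0.12 (SE 0.03) became -0.02 under total counts. Its partner NOP56 fell by 0.22. For NOP58 the combination lay above both single agents, by 0.18 over EC359 and 0.29 over trametinib.

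In the SSU processome 11 of 13 genes fell and 0 rose with the combination, 9 fell and 0 rose with EC359 and 11 fell and 0 rose with trametinib. WDR3, a WD-repeat protein of the processome (chr1:117929749-117960426, + strand, 27 merged exons), was read at 111, 108 and 113 CPM in control, 66.7, 65.9 and 69.2 under EC359, 87.7, 86.2 and 91.3 under trametinib and 30.4, 31.2 and 29.8 under the combination. The groups formed 4 separate steps. WDR3 fell by 1.86 (SE 0.04, 3.63-fold, edgeR adjusted p = 1.9e-43) with the combination, by 0.72 with EC359 and by 0.32 with trametinib.

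UTP15, a component that links the processome to transcription of the precursor (chr5:73565741-73583377, + strand), was read at 36.4, 38.6 and 34.8 CPM in control, 22.3, 24.4 and 23.4 under EC359, 30.4, 32.6 and 30.4 under trametinib and 15.2, 16.5 and 15.9 under the combination. It too fell in 4 separate steps, by 1.2 (SE 0.06, 2.3-fold, edgeR adjusted p = 5.5e-26) with the combination. UTP3 (-1.0), WDR43 (-0.97), WDR75 (-0.93) and NAT10 (-0.91), the last the acetyltransferase of 18S ribosomal RNA, followed with the combination. HEATR1 had -0.41 and the U3 snoRNP protein RRP9 -0.30. NOP14 and UTP18 had -0.25 and -0.23, and UTP20 -0.10. UTP3 had -0.18 with EC359 and -0.20 with trametinib alone.

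The 2 processome genes that passed in neither direction with the combination were DDX10, a helicase (0.02), and NOC4L, the partner of NOP14. NOC4L was read at 50.6, 51.8 and 46.5 CPM in control and 51.9, 51.7 and 53.9 CPM with the combination, overlapping, with a log2 fold change of 0.08 (SE 0.04, edgeR adjusted p = 0.10), which became -0.06 under total counts.

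Of the 40S maturation genes, 7 of 7 fell with trametinib, 5 fell and 2 rose with EC359, and 5 fell and 1 rose with the combination. LTV1, which takes part in assembly and export of the 40S subunit (chr6:143843371-143863806, + strand), was read at 58.7, 55.5 and 55.9 CPM in control, 32.8, 32.8 and 36.8 under EC359, 47.7, 45.9 and 48.5 under trametinib and 26.5, 21.5 and 23.5 under the combination. No groups overlapped. LTV1 fell by 1.25 (SE 0.05, 2.38-fold, edgeR adjusted p = 9.0e-25) with the combination.

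PNO1, an RNA-binding factor needed for cleavage at the 3′ end of 18S, was read at 48.1 to 49.2 CPM in control, 33.7 to 34.4 under EC359, 37.2 to 38.9 under trametinib and 24.4 to 26.1 under the combination, and fell by 0.95 (SE 0.05). The kinases RIOK2 (-0.69) and RIOK1 (-0.48) and the factor TSR1 (-0.36) also fell with the combination. RRP12, a factor of export of both subunits, was read at 88.8, 89.5 and 88.6 CPM in control, 118, 113 and 116 under EC359, 71.7, 69.1 and 70.5 under trametinib and 114, 109 and 106 under the combination. It was thus above control in each library given EC359 and below it with trametinib alone. Its log2 fold changes were 0.38 (SE 0.03), -0.34 (SE 0.03) and 0.30 (SE 0.03, edgeR adjusted p = 2.8e-12), and its combination value was 0.16 under total counts, still higher by the test. BYSL, which binds early 40S precursors, had 0.13, -0.22 and 0.02, of which the last did not pass.

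Among the 18 genes of 60S assembly, 15 fell under EC359, 17 under trametinib and 15 under the combination, and 1, 0 and 2 rose. RRS1, a factor that brings the 5S ribonucleoprotein into the 60S precursor and a gene of 1 exon, changed most of the 58 with the combination. It was read at 98.5, 102 and 97.7 CPM in control, 49.8, 51.4 and 53.8 under EC359, 69.6, 68.9 and 70.3 under trametinib and 22.3, 22.1 and 20.8 under the combination. Again the 4 groups did not overlap. RRS1 fell by 2.19 (SE 0.04, 4.57-fold, edgeR adjusted p = 4.6e-45) with the combination, by 0.94 with EC359 and by 0.51 with trametinib.

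PPAN, a 60S factor related to yeast SSF1 (chr19:10106223-10111299, + strand), was read at 89.5, 88.1 and 87.1 CPM in control, 60.6, 60.9 and 64.4 under EC359, 68.2, 67.8 and 70.5 under trametinib and 38.1, 41.1 and 39.5 under the combination. PPAN fell by 1.16 (SE 0.04, 2.23-fold, edgeR adjusted p = 2.2e-33). Its exons also belong to the read-through gene PPAN-P2RY11, which had 2586 to 3058 counts in control and 1137 to 1261 with the combination beside 2506 to 2961 and 955 to 1103 for PPAN, so the 2 genes cannot be told apart on the shared bases.

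NOP16, a nucleolar 60S factor (chr5:176383937-176388762, - strand), was read at 75.4, 77.4 and 71.4 CPM in control, 49, 48 and 50.1 under EC359, 50.2, 51.8 and 52.7 under trametinib and 35.1, 35.8 and 35.6 under the combination. The single agents lay within a few CPM of each other and the combination below both. NOP16 fell by 1.07 (SE 0.04, 2.1-fold, edgeR adjusted p = 1.6e-30). NIP7 had -0.90 and RRP1B -0.62.

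The PES1, BOP1 and WDR12 proteins form a complex that acts in 28S and 5.8S maturation. PES1 (-0.49) and WDR12 (-0.54) fell with the combination, and BOP1 had 0.05, which did not pass, with -0.22 under trametinib alone. The GTPases GNL3 (nucleostemin, -0.54) and GNL3L (-0.34) fell with the combination. GNL2, a GTPase of the same family, was read at 76.9 to 79.9 CPM in control, 99.1 to 104 under EC359, 66.1 to 71.5 under trametinib and 91.9 to 99.1 under the combination. GNL2 rose by 0.37 (SE 0.03) with EC359 and 0.28 (SE 0.03, edgeR adjusted p = 4.8e-10) with the combination and had -0.19 (SE 0.04) with trametinib. With total counts the value of GNL2 in the combination was 0.14, still higher by the test. NOC2L, whose value was 0.06, was the other 60S gene that rose with the combination, but under total counts it fell (-0.08), and its partner NOC3L had -0.54. The remaining 60S genes fell with the combination, the 28S methyltransferase NOP2 by 0.54, DDX18 by 0.44, GRWD1 by 0.39, EBNA1BP2 by 0.38 and DDX56 by 0.36.

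**Figure D3:**
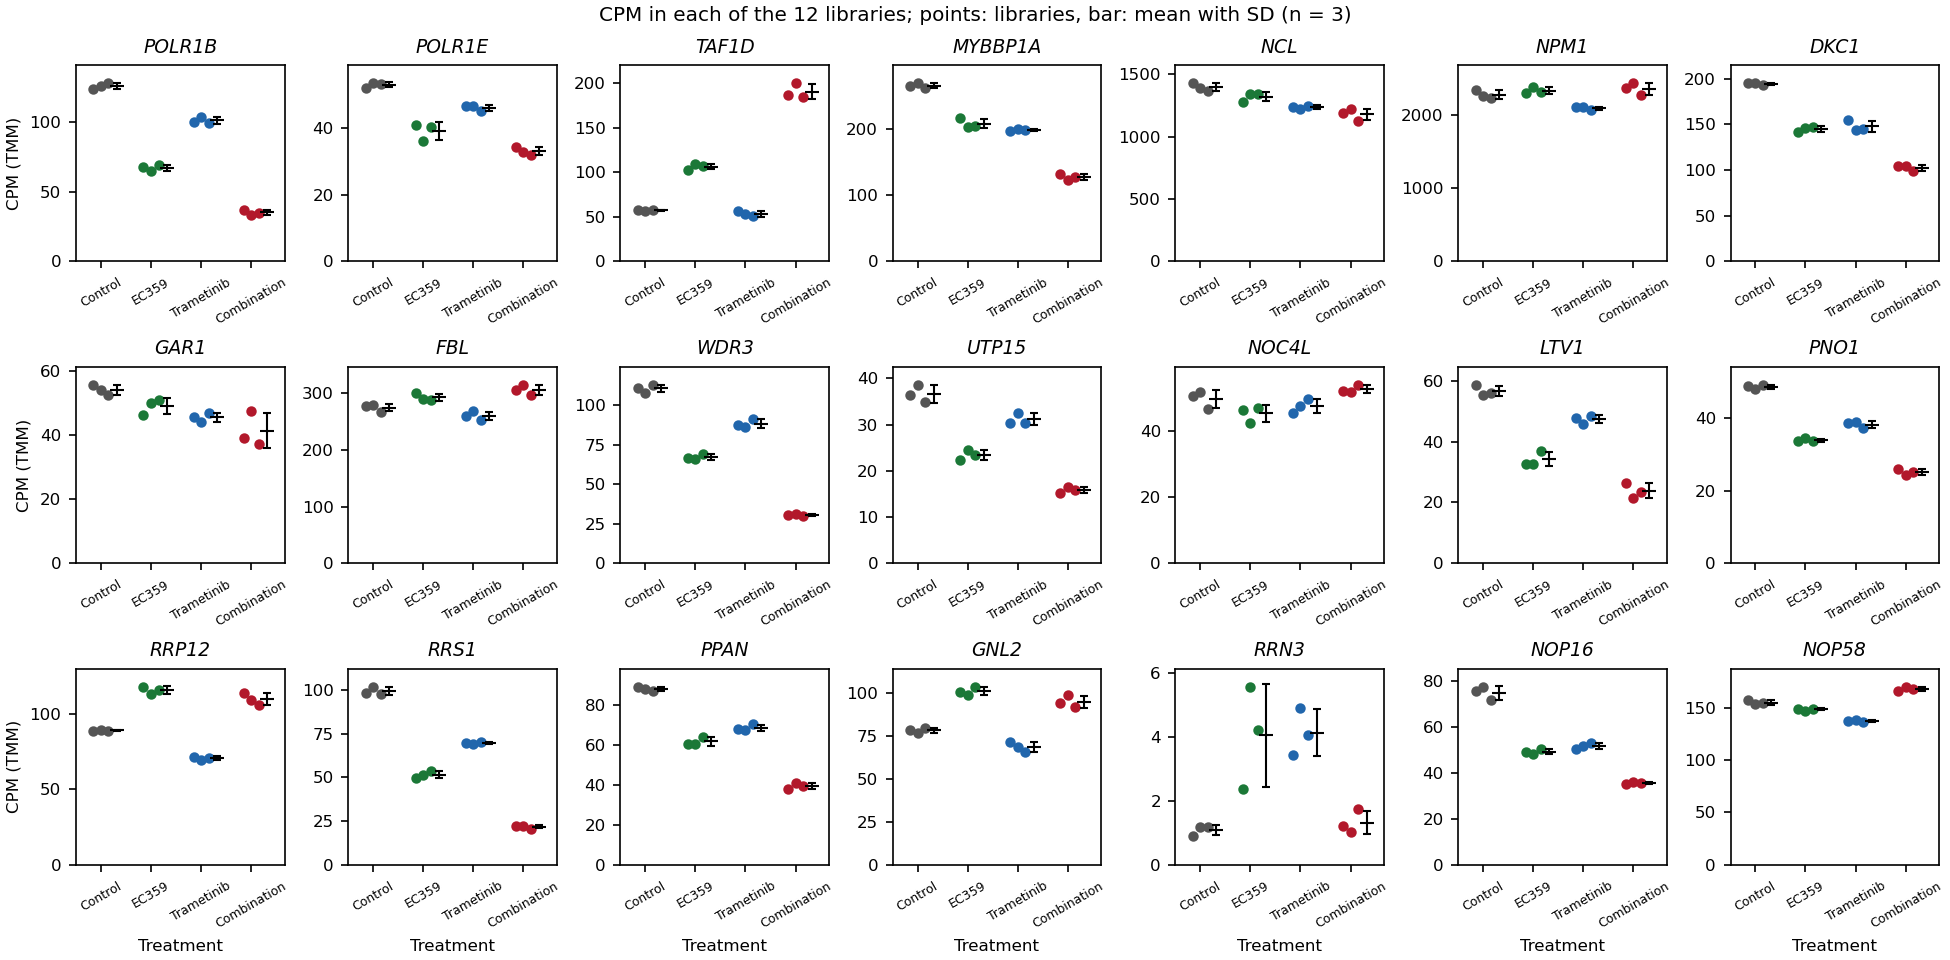
CPM after TMM scaling in each of the 12 libraries for 21 named genes, with 3 libraries (points) and their mean and SD (black) per treatment, on axes that start at 0. POLR1B, WDR3, RRS1, LTV1 and PPAN step down from control to single agents to combination, TAF1D climbs to 184 to 200 CPM, and RRP12 and GNL2 are high wherever EC359 was given.

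Most of the 58 were lower with both agents than with either alone. Against EC359 alone, the combination was lower for 46 and higher for 6 (all genes tested, 25.2% and 24.1%), with a median of -0.23. Against trametinib alone it was lower for 37 and higher for 13 (32.9% and 35.3%), with a median of -0.24, and under total counts the split was 46 lower and 7 higher, where all genes tested had 7078 lower and 3500 higher. These comparisons share the combination libraries. In all, 35 genes were lower with the combination than in control and lower than with each single agent (14.6% of all genes tested), and 4 were above both single agents (17%), namely TAF1D, FBL, NOP58 and NOC4L. Under total counts these were 41 and 2 genes, the 2 being TAF1D and NOP58, and the shares of all genes tested were not computed for that scaling. WDR3 was lower than with EC359 by 1.14 (SE 0.04) and than with trametinib by 1.54 (SE 0.04). RRS1 was lower by 1.25 and 1.68.

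The single agents set side by side gave no common direction, with 19 of the 58 lower and 23 higher with EC359 than with trametinib (all genes tested, 31.2% and 31.6%) and a median of 0.01. Under total counts the split was 36 lower and 9 higher, with a median of -0.14 where all genes tested had -0.17 and a split of 7213 lower and 2998 higher. POLR1B (-0.60), UBTF (-0.54), LTV1 (-0.47) and RRS1 (-0.43) were lower with EC359, and TAF1D (0.99), RRP12 (0.72), GNL2 (0.56) and DDX21 (0.53) were higher, in all 8 cases also under total counts. All 5 nucleolar proteins were higher with EC359 than with trametinib under TMM, but under total counts MYBBP1A (-0.09) and NCL (-0.07) were lower, NPM1 (0.00) did not pass, and DDX21 and NOLC1 were still higher.

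The interaction is the log2 change of the combination less the summed log2 changes of both agents given alone. It was lower than 0 for 18 of the 58 and higher for 14 (all genes tested, 15.9% and 14.4%), and the median was 0. Among the 45 that fell with the combination, 17 had a lower interaction and 6 a higher one, against 30.3% and 5.63% of the 5152 genes tested that fell with the combination, a choice that itself favours lower interactions. WDR3 (-0.82, SE 0.05), RRS1 (-0.74, SE 0.06), UTP3 (-0.63) and POLR1B (-0.62, SE 0.05) were the genes that fell most beyond the sum, leaving out RRN3. TAF1D rose beyond it by 0.94 (SE 0.05, edgeR adjusted p = 8.7e-20). NOP16 (0.07, edgeR adjusted p = 0.41), PNO1 (-0.08, edgeR adjusted p = 0.40) and POLR1E (-0.04, edgeR adjusted p = 0.73) did not pass. By role, 7 of 13 processome genes were lower than the sum and 1 was higher, while of 7 snoRNP genes 1 was lower and 4 were higher.

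**Figure D4:**
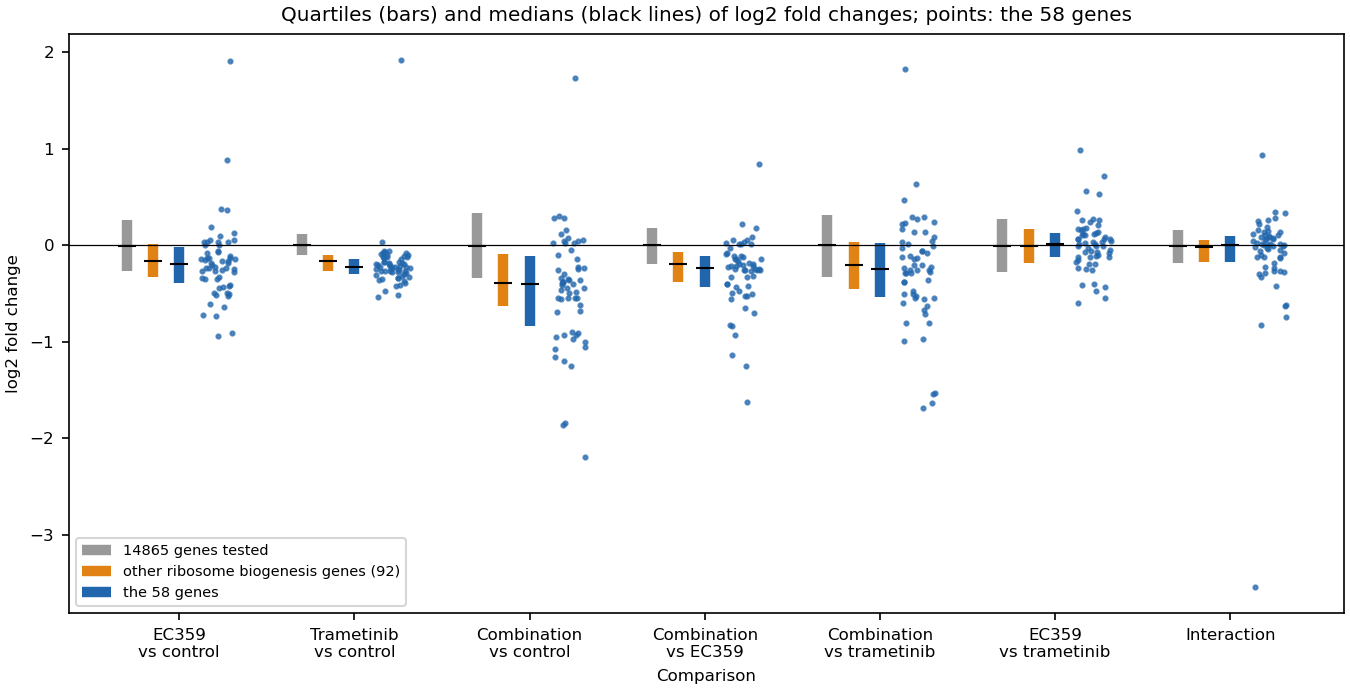
Log2 fold changes in the 7 comparisons, with bars from the first to the third quartile and black lines for the medians of all 14865 genes tested (grey), 92 other ribosome biogenesis genes (orange) and the 58 genes (blue), and a point per gene of the 58. The blue medians are -0.19, -0.22 and -0.40 against control, and close to 0 for EC359 against trametinib and for the interaction. The EC359 against trametinib median turns to -0.14 under total counts.

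A list of 92 other ribosome biogenesis genes, all tested, had 57.6% lower with EC359 (53 fell and 11 rose), 67.4% with trametinib (62 and 0) and 77.2% with the combination (71 and 7), against 69%, 86.2% and 77.6% of the 58, with a combination median of -0.39. The lowest were the RNA polymerase I subunit POLR1G, listed as CD3EAP (44.2 CPM in control and 12.4 with the combination, log2 fold change -1.83, SE 0.06), and the 60S factor MAK16 (77.7 and 26.4 CPM, -1.56, SE 0.04). The highest was TAF1C, a further SL1 subunit (30.1 and 46.9 CPM, 0.64, SE 0.05). Neither list is independent of earlier results of these data.

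By gene structure, the 6 genes with 1 to 5 merged exons all fell with the combination, with a median of -0.95, against -0.39 for 14 genes with 6 to 12 and -0.41 for 37 genes with over 12. Those 6 are RRS1, UTP3, NOP16, NIP7, NOP10 and NHP2, with values from -2.19 to -0.14. Over 57 genes the correlation with exon number was 0.07, and the groups were not compared with all genes tested of like exon number. The 10 genes with small nucleolar RNA genes in their span in GENCODE 29 (8 lower, 2 higher, median -0.45) resembled the 47 without (median -0.41), RRN3 left out.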

How the data were processed

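The deposited values are estimated counts per gene (expected counts), 1 file per library and not normalized. Per the file headers, featureCounts 1.5.0-p1 was run by the authors in paired mode, with strand and a mapping quality of at least 2, and a read that fitted several places or genes was shared among them as fractions. HISAT2 and bcl2fastq are named in the submitters' processing notes, with the hg38 build and no versions. Divided reads leave 12.4% to 15.1% of genes with values that are not whole.

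Counts were rounded, filtered with filterByExpr (minimum count 10, minimum total 15) and scaled by TMM, and 1 robust quasi-likelihood model of edgeR 4.0.16 (R 4.3.3) was fitted to 12 libraries. P-values were adjusted by Benjamini-Hochberg over 14865 genes, and SE is the log2 fold change over the square root of F. The fit was tested on simulated counts with few genes changed in 1 group, which does not test the scaling where many genes change. The 58 genes, their roles, the 92 other genes and the tests were chosen with earlier results of these data known. Genes with values in every library are the 2 lowest and 1 highest per role in the combination, those past 2-fold, and the 2 lowest and highest interactions, and other genes named in lists were chosen after their values were seen. Alternatives were DESeq2 1.42.0, its size factors, total counts, other filters, rounding and thresholds, fits of only the groups compared, a replicate block and each library left out.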

Additional observations from a re-analysis of the deposited data

Results flagged for a closer look

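Each of these values is listed because the effect of one agent differed with the other agent present, by the interaction term of edgeR's quasi-likelihood model (adjusted p under 0.05). Of the 58 genes, 18 had a lower and 14 a higher interaction. Among the 21 genes given with values in every library, lower values were those of RRN3 (-3.54, SE 0.37, edgeR adjusted p = 3.6e-07), WDR3 (-0.82), RRS1 (-0.74), POLR1B (-0.62), UTP15 (-0.33), PPAN (-0.29), MYBBP1A (-0.28), LTV1 (-0.26) and DKC1 (-0.12, SE 0.04, edgeR adjusted p = 0.032). Of the same genes, higher values were those of TAF1D (0.94), NOP58 (0.35), NOC4L (0.28, SE 0.06, edgeR adjusted p = 0.00056), RRP12 (0.26), FBL (0.14) and NPM1 (0.14). For RRN3, both single agents were above control and the combination was not, on at most 166.5 counts a library that its alternate placement makes uncertain.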

How the results depend on the processing

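Scaling by total counts moved the most values. The median of all genes tested shifted to -0.15 with EC359, -0.14 with the combination, -0.16 for the combination against trametinib and -0.17 for EC359 against trametinib. The 58 genes then had 5 higher and a median of -0.32 with EC359, 3 higher and -0.54 with the combination, 7 higher and -0.40 for the combination against trametinib, and 36 lower, 9 higher and -0.14 for EC359 against trametinib. NPM1 (-0.09), NOC4L (-0.06) and NOP58 (-0.02) changed sign in the combination, and FBL had 0.02. For the combination against EC359 the count of higher genes ranged from 3 (without EC359 library 3 or combination library 2) to 6 as single libraries were left out. The call of NPM1 in the combination (edgeR adjusted p = 0.048) was lost without any of 8 single libraries, with adjusted p up to 0.34. With the replicate block, 45 of the 58 were lower and 7 higher in the combination, and none of the 58 genes changed its call in any of the 7 comparisons. Deviations of libraries with the same number had correlations of -0.126 to 0.16 (median -0.032, over 18 pairs). For libraries with other numbers these were -0.14 to 0.191 (median -0.007, over 36 pairs). With 3 libraries a condition, such values cannot decide whether the numbers pair the libraries. Over all alternatives together, 285 counts of the 58 stayed within 1.5 times and 7 did not. Of the medians, 135 moved by less than 0.0356 (1 SD between libraries), 3 moved further, and 1 moved further and changed sign. For the 21 named genes, 425 combination values kept their direction and their side of the threshold, which does not bound their size. Of their other values, 3 changed direction, 12 lost their call and 1 gained one. These fits reuse the same libraries and are not independent of each other.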
